A study of Arabidopsis thaliana with 12 samples.

Results

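Short transposon entries are transposon sequences under 3000 bases in the reference to which the reads of this series were aligned. The members described here are the 475 of 29498 such entries whose reads, summed over all 12 libraries, reached 200, so they were chosen by their measured counts. They were read out of a table of 87128 reference sequences, 31189 of which are transposon entries named by chromosome and number. A member's presence is therefore no finding, and an entry read in only 1 group could enter only if it was high there. Of the other short entries, 23316 had no read in any library and 5707 had reads below the threshold. AT5TE82670 with 200 reads and AT1TE54100 with 201 lay just inside the threshold, and AT5TE28270 and AT5TE62210 with 199 lay just outside.

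The series compared whole wild-type Col-0 seedlings of Arabidopsis thaliana kept in shaken mineral water, with 3 libraries in each of 4 groups. Primed heat shock seedlings, 7 days old, had 2 h at 38 °C, then 22 h at 21 °C, then 30 min at 43 °C. Heat shock seedlings, also 7 days old, had only the 30 min at 43 °C. The priming group had 30 min at 38 °C at 6 days, and control seedlings, 6 days old, had no heat. Durations are as labelled for each group; the protocol common to all samples names 2 h. Age and heat cannot be told apart wherever heat shock or primed heat shock is set against control or priming. Total RNA was depleted of ribosomal RNA and sequenced with strand kept. Libraries held 72075150 to 152118790 aligned reads. Separate cultures for the replicates are not stated in any label, and p-values therefore reflect the spread among these libraries only.

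Transposons are mobile DNA, and plants keep most of them silent through DNA methylation, methylation of histone H3 on lysine 9, and small RNAs that guide methylation to matching DNA. Heat is known to overcome that silencing at some elements in Arabidopsis, the copia retrotransposon ONSEN being the best studied. Many short entries are remnants that can no longer move. A read in such a remnant may come from a longer transcript that runs through it, such as that of a neighbouring gene. The entries are annotated by name only in the sources used here, so neither family nor neighbouring gene is given, and no coordinate or sequence is printed.

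The members were longer than short entries in general, with a median length of 474 bases (range 96 to 2992) against 275 bases over all 29498. Chromosomes 1 to 5 carried 117, 85, 83, 71 and 119 of them. Together they took 675138 reads, 85.7% of all reads on short entries, and the 10 most read entries took 29.3% of those. The summed reads of 1 member ran from 200 to 49836 with a median of 542. Levels are given in CPM, counts scaled to a common library size with TMM factors. Per kb of length, the mean level over the 4 groups ran from 0.0636 to 55.2 CPM per kb, with a median of 0.904.

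Reads whose mate did not align were counted for each sequence too. Members had a median of 5.41 such mates per 100 aligned reads (interquartile range 1.36 to 18.0), against 3.04 in nuclear gene loci under 3000 bases. Both kinds of sequence had the most under 300 bases. Within length classes the medians were 18.1 in members and 44.9 in gene loci under 300 bases, 4.61 and 7.52 at 300 to 600, 6.36 and 3.05 at 600 to 1200, and 2.11 and 2.89 above that.

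Most of the 10 most abundant members were read in every library. AT5TE72200, 1226 bases long, had 34.9, 32.2 and 31.9 CPM in the primed heat shock libraries, 32.5, 32.2 and 29.8 CPM in heat shock, 46.4, 44.1 and 43.9 CPM in priming, against 37.5, 34.2 and 38.5 CPM in control. Its priming libraries lay above all others. The log2 fold change in priming against control was 0.29 ± 0.08 (SE, edgeR adjusted p = 0.00561), and -0.22 in heat shock against control (edgeR adjusted p = 0.0252, 0.0520 without control replicate 3 and 0.107 without heat shock replicate 3). AT3TE55095 had 21.8, 20.1 and 23.3 CPM in the primed heat shock libraries, 20.3, 29.3 and 31.3 CPM in heat shock, 47.4, 27.3 and 42.1 CPM in priming, against 25.5, 25.6 and 19.5 CPM in control. Its priming libraries spread widely around a log2 fold change of 0.72 ± 0.20 (SE, edgeR adjusted p = 0.0101) in priming against control, which did not pass without priming replicate 1 (adjusted p = 0.0532).

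Per length, AT4TE13950 (55.2 CPM per kb) and AT4TE13930 (45.7 CPM per kb) stood highest. AT4TE13950 had 16.5, 15.7 and 17.7 CPM in the primed heat shock libraries, 15.5, 17.7 and 18.7 CPM in heat shock, 18.7, 16.0 and 14.9 CPM in priming, against 8.83, 11.3 and 9.61 CPM in control. All 9 heated libraries lay above the 3 controls. AT4TE13930 had 14.8, 14.5 and 14.2 CPM in the primed heat shock libraries, 13.3, 15.3 and 15.2 CPM in heat shock, 15.1, 13.6 and 15.2 CPM in priming, against 6.60, 8.80 and 9.05 CPM in control, again with every heated library above control. The log2 fold changes in heat shock against control were 0.80 ± 0.11 (SE, edgeR adjusted p = 3.28e-05) for AT4TE13950 and 0.84 ± 0.11 (SE, edgeR adjusted p = 1.89e-05) for AT4TE13930. With no TMM factor neither passed, at 0.31 (adjusted p = 0.0712) and 0.34 (0.0703). Neither differed detectably between primed heat shock and heat shock, at -0.06 ± 0.11 (SE, edgeR adjusted p = 0.779) and -0.01 ± 0.11 (SE, edgeR adjusted p = 0.949).

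AT2TE44930 and AT2TE45280, also among the 10 most abundant, moved in opposite directions in priming. AT2TE44930 had 5.72, 4.96 and 8.31 CPM in the primed heat shock libraries, 4.75, 7.01 and 7.63 CPM in heat shock, 16.8, 9.85 and 11.6 CPM in priming, against 7.99, 8.28 and 6.83 CPM in control. Its log2 fold change in priming against control was 0.73 ± 0.24 (SE, edgeR adjusted p = 0.0205), with adjusted p = 0.0721 without control replicate 3 and 0.102 without priming replicate 1. AT2TE45280 had 7.49, 6.59 and 7.52 CPM in the primed heat shock libraries, 7.58, 8.79 and 9.57 CPM in heat shock, 3.16, 3.72 and 3.35 CPM in priming, against 4.22, 5.38 and 5.89 CPM in control. Its groups did not overlap. The log2 fold change was -0.60 ± 0.14 (SE, edgeR adjusted p = 0.00170) in priming against control and 0.74 ± 0.13 (SE, edgeR adjusted p = 2.38e-04) in heat shock against control. The second fell to 0.24 with no TMM factor and did not pass (adjusted p = 0.245). The remaining members among the 10 most abundant are AT5TE95125 and 3 entries of chromosome 2, described further on.

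More of the short entries were read in seedlings that had been at 43 °C. With all libraries brought to 1 nuclear depth, the number of short entries with a read was 2750 to 3022 in primed heat shock, 2713 to 3004 in heat shock, 966 to 1127 in priming and 1576 to 1702 in control. The priming libraries lay below every control library, and both groups shocked at 43 °C lay above all others. Other noncoding entries followed the same order at that depth, with 2549 to 2638 in primed heat shock, 2462 to 2636 in heat shock, 1024 to 1195 in priming and 1451 to 1528 in control. Nuclear gene loci with a read numbered 24821 to 25090 in primed heat shock, 25000 to 25052 in heat shock, 23316 to 23725 in priming and 24030 to 24159 in control. Equal nuclear depth takes no account of the TMM factors, which were 0.648 to 0.819 in priming and 1.25 to 1.44 in control. Where a few RNAs are very abundant, fewer reads of that depth are left for other sequences. The part of this in the lower numbers of priming was not tested. In whole seedlings, a change in the number of cells of a type and in the RNA per cell cannot be told apart.

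**Figure D1:**
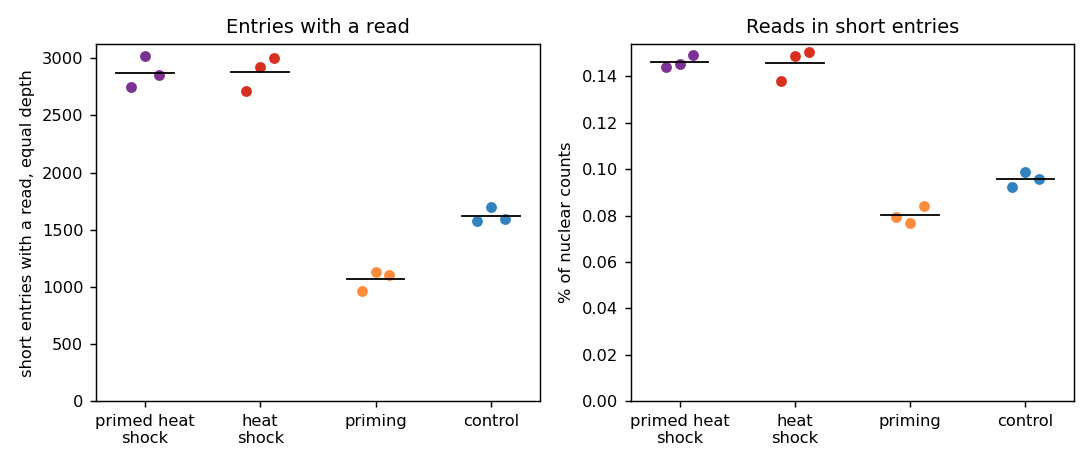
Left, short transposon entries with at least 1 read at equal nuclear depth; right, reads on short entries as a percent of nuclear counts. Each point is 1 library and each line the mean of 3; both groups shocked at 43 °C lie above control, and priming lies below it. Neither panel takes the TMM factors into account.

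Short entries took 0.146% ± 0.00269 of the nuclear counts in primed heat shock, 0.146% ± 0.00681 in heat shock, 0.0800% ± 0.00362 in priming and 0.0956% ± 0.00334 in control (SD, n = 3 each). The share in priming was 0.837 of that in control, and the share in heat shock was 1.52 times that in control. Taken of all counts without ribosomal RNA, which include the abundant plastid RNA, the shares were 0.0718% ± 0.00398, 0.0640% ± 0.00270, 0.0433% ± 0.00243 and 0.0567% ± 0.00417 in the same order, and heat shock stood at 1.13 times control. Entries outside the 475 carried part of this: those under the threshold took 0.0268% of nuclear counts in primed heat shock, 0.0279% in heat shock, 0.00459% in priming and 0.00966% in control. On the TMM scale the direction in priming was the other way. In CPM, the 452 members outside a run of chromosome 2 described below summed to 481.4 ± 16.0 in primed heat shock and 476.0 ± 18.1 in heat shock. They summed to 472.0 ± 28.5 in priming and 350.2 ± 4.81 in control (SD, n = 3 each). No test was run on these shares or sums.

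Among the 475 members, 154 had their highest mean level in primed heat shock, 150 in heat shock, 81 in priming and 90 in control. The sum that chose the members includes both groups shocked at 43 °C, and the same split was not made over all sequences. Every member had a read in both groups shocked at 43 °C, whereas 30 had none in any priming library and 19 none in any control library, 11 of them in neither. Over 75% of the summed group means fell in 1 group for only 8 members, 2 in primed heat shock and 6 in priming.

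Priming against control asks what 30 min at 38 °C does to seedlings of the same age. Here 87 members (18.3%) were higher and 145 (30.5%) lower at an edgeR adjusted p under 0.05, against 26.7% higher and 27.1% lower of all 26159 sequences tested (53.8% in either direction). The median log2 fold change was -0.33 over the members, or -0.25 with the 38 members unread in a group set to their bound, and -0.02 over all sequences. The spread was wide in both directions, with entries near 0 in control that reached high levels and others that nearly disappeared. The filter on low counts removed no member.

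**Figure D2:**
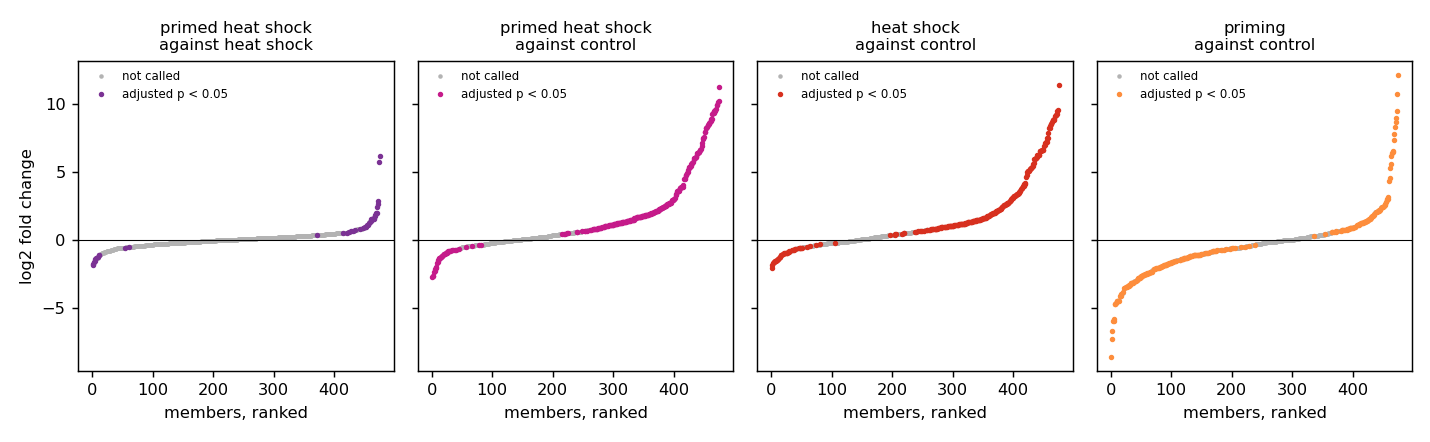
Log2 fold change of each of the 475 members, ranked within each comparison; coloured points have an edgeR adjusted p under 0.05. The curves are lifted at the upper end in all 4 panels, priming against control alone has a long lower end, and primed heat shock against heat shock stays near 0 for most members; several of the extreme points are entries with no read in 1 group, whose fitted value depends on the prior count.

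AT5TE95125, 440 bases long, had the largest fitted rise in priming. It had 4.58, 4.70 and 7.30 CPM in the primed heat shock libraries, 1.34, 1.21 and 1.71 CPM in heat shock, 81.8, 55.9 and 64.7 CPM in priming, against 0.0151, 0 and 0.0279 CPM in control. The 4 groups did not overlap, and control held only 7 reads in all. The log2 fold change in priming against control was 12.17 ± 0.42 (SE, edgeR adjusted p = 3.18e-10). In heat shock against control it was 6.60 ± 0.48 (SE, edgeR adjusted p = 5.54e-07).

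The entries numbered just before and after it were high in the same groups. AT5TE95130, with the same order of groups, had 1.57, 1.11 and 2.48 CPM in the primed heat shock libraries, 0.462, 0.416 and 0.419 CPM in heat shock, 17.9, 12.7 and 16.5 CPM in priming, against 0, 0.0146 and 0.00558 CPM in control, a log2 fold change of 10.80 ± 0.43 (SE, edgeR adjusted p = 1.03e-10) in priming against control. AT5TE95120, at a lower level, had 0.809, 0.658 and 1.68 CPM in the primed heat shock libraries, 0.193, 0.208 and 0.192 CPM in heat shock, 0.740, 0.496 and 0.387 CPM in priming, against no read in the control libraries. In that entry, primed heat shock replicates 1 and 3 stood above all priming libraries and replicate 2 within their range. The numbers alone do not say whether 1 transcript covers the 3 entries.

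AT1TE64755, 247 bases, was read at nearly the same level in priming as in primed heat shock. It had 4.76, 3.87 and 4.81 CPM in the primed heat shock libraries, 0.0503, 0.0792 and 0.122 CPM in heat shock, 4.53, 4.63 and 5.95 CPM in priming, against 0, 0.00973 and 0.00558 CPM in control. Control held 3 reads in all, and the ratio of priming to control was 850.2-fold (exact 95% counting interval 290.1 to 4129, edgeR adjusted p = 8.00e-12). Counting intervals here cover counting error only. They take each read as separate, although both mates of 1 fragment may be counted, so they may be too narrow. AT5TE76900, the shortest member at 96 bases, had 0.776, 0.592 and 0.852 CPM in the primed heat shock libraries, 0.109, 0.0792 and 0.113 CPM in heat shock, 1.18, 1.49 and 1.12 CPM in priming, against 0, 0 and 0.00558 CPM in control. Its priming to control ratio, over 1 control read, was 679-fold (exact 95% counting interval 121 to 26919, edgeR adjusted p = 2.09e-09), and 75.9 mates per 100 of its reads did not align.

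Another 4 entries were high in priming alone. AT4TE09335 had 0.222, 0.183 and 0.133 CPM in the primed heat shock libraries, 0.378, 0.327 and 0.209 CPM in heat shock, 4.61, 5.20 and 6.10 CPM in priming, against 0.0227, 0.0487 and 0.0167 CPM in control, a log2 fold change of 7.38 ± 0.34 (SE, edgeR adjusted p = 8.24e-11). AT5TE17345 had 0.133, 0.417 and 0.411 CPM in the primed heat shock libraries, 0.0923, 0.317 and 0.174 CPM in heat shock, 2.91, 3.00 and 2.73 CPM in priming, against 0.0151, 0.0487 and 0.0223 CPM in control, a log2 fold change of 6.51 ± 0.50 (SE, edgeR adjusted p = 6.41e-08). AT5TE17325, whose number lies close to it, had 0.255, 0.314 and 0.400 CPM in the primed heat shock libraries, 0.0923, 0.0891 and 0.140 CPM in heat shock, 2.90, 2.89 and 3.32 CPM in priming, against 0.128, 0.0730 and 0.184 CPM in control, a log2 fold change of 4.56 ± 0.31 (SE, edgeR adjusted p = 1.10e-08). In these 3 entries no priming library overlapped any other group, nor did it in AT1TE91400. AT1TE91400 had 0.476, 0.241 and 0.308 CPM in the primed heat shock libraries, 0.134, 0.198 and 0.140 CPM in heat shock, 2.52, 2.84 and 2.14 CPM in priming, against 0.0529, 0.156 and 0.139 CPM in control, and its log2 fold change in priming against control was 4.37 ± 0.35 (SE, edgeR adjusted p = 7.24e-08). AT4TE09335 and AT5TE17345 had 176 and 188 reads outside priming, so they are members only through the group where they were high, and their rise there is a description.

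**Figure D3:**
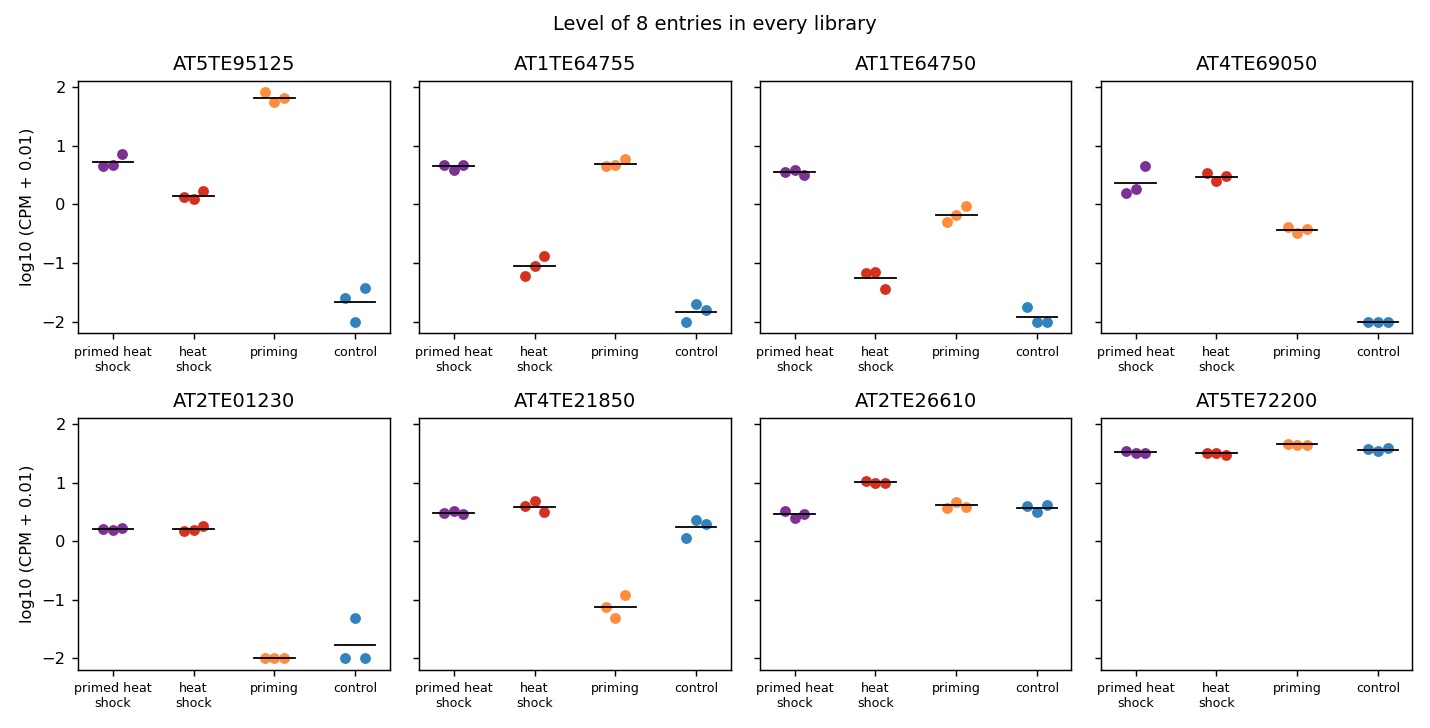
Level of 8 members in every library, as log10 of CPM plus 0.01; each point is 1 library, each line the mean of the log values, and a library without a read sits at -2. AT5TE95125, AT1TE64755 and AT1TE64750 rise in priming and are higher in primed heat shock than in heat shock, AT4TE69050 and AT2TE01230 are highest in the groups shocked at 43 °C, AT4TE21850 is lowest in priming, AT2TE26610 is highest in heat shock, and AT5TE72200 is nearly level.

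Among members with at least 1 CPM in control, the largest losses in priming were of entries that heat shock did not remove. Members below that level fell further, to a fitted log2 fold change of -8.61, some with no read in priming. AT4TE21850 had 2.98, 3.30 and 2.94 CPM in the primed heat shock libraries, 3.94, 4.78 and 3.12 CPM in heat shock, 0.0658, 0.0389 and 0.111 CPM in priming, against 1.12, 2.25 and 1.97 CPM in control. Its 3 priming libraries lay below every other, and the log2 fold change in priming against control was -4.76 ± 0.38 (SE, edgeR adjusted p = 7.44e-08). AT2TE26660 had 1.71, 1.38 and 1.13 CPM in the primed heat shock libraries, 1.90, 1.86 and 1.83 CPM in heat shock, 0.0987, 0.0195 and 0.184 CPM in priming, against 1.28, 1.64 and 1.67 CPM in control, a log2 fold change of -4.13 ± 0.39 (SE, edgeR adjusted p = 5.72e-07) in priming against control. AT1TE71830 had 2.05, 2.60 and 1.77 CPM in the primed heat shock libraries, 2.85, 2.59 and 2.57 CPM in heat shock, 0.0658, 0.117 and 0.424 CPM in priming, against 0.907, 1.62 and 1.38 CPM in control, with a log2 fold change of -2.81 ± 0.42 (SE, edgeR adjusted p = 6.76e-05) in priming against control. In AT4TE21850 and AT1TE71830, the libraries of both groups shocked at 43 °C lay above those of control.

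AT2TE43125 and AT1TE35020 were lower in all heated groups, and lowest in priming. AT2TE43125 had 0.454, 0.519 and 0.708 CPM in the primed heat shock libraries, 0.478, 0.614 and 0.436 CPM in heat shock, 0.165, 0.136 and 0 CPM in priming, against 1.13, 1.03 and 1.19 CPM in control, and AT1TE35020 had 1.92, 1.77 and 1.67 CPM in the primed heat shock libraries, 1.21, 1.67 and 1.58 CPM in heat shock, 0.691, 0.263 and 0.332 CPM in priming, against 2.74, 2.73 and 3.50 CPM in control. Control lay above all heated libraries in both entries. In priming against control the log2 fold changes were -3.37 ± 0.45 (SE, edgeR adjusted p = 1.59e-05) for AT2TE43125 and -2.85 ± 0.28 (SE, edgeR adjusted p = 6.97e-07) for AT1TE35020. In heat shock against control they were -1.13 ± 0.35 (SE, edgeR adjusted p = 0.0135) and -1.01 ± 0.24 (SE, edgeR adjusted p = 0.00218), and AT2TE43125 did not pass without heat shock replicate 3 (adjusted p = 0.0550).

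Direction in priming depended on how libraries were scaled. The TMM factors were 0.648 to 0.819 in priming and 1.25 to 1.44 in control. HSP101, a chaperone that frees proteins from aggregates, stood at 1040 ± 190.3 CPM in primed heat shock, 750.2 ± 106 in heat shock, 20979 ± 434 in priming and 38.2 ± 2.04 in control (SD, n = 3 each). With library size alone and no TMM factor, the median of all sequences shifted to -0.88 in priming against control, and 40 members were higher and 271 lower. The rises of AT5TE72200, AT3TE55095, AT4TE13950, AT4TE13930, AT2TE15150 and AT2TE44930 then turned negative, at -0.58 to -0.034, while the median of all members was -1.19.

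Heat shock against control sets 30 min at 43 °C at 7 days against untreated seedlings of 6 days. In this comparison 218 members (45.9%) were higher and 42 (8.84%) lower, where 27.9% of all sequences were higher and 24.5% lower (52.4% in either direction). The median log2 fold change was 0.59 over members and 0.01 over all sequences. Among the 361 members that reach 200 reads without the heat shock libraries, 146 were higher and 40 lower. Their sum still includes primed heat shock, also shocked at 43 °C, so entries read only at 43 °C are not all removed. With no TMM factor, 153 of the 475 were higher and 93 lower, beside a median of -0.48 over all sequences. The count of lower members was 25 without control replicate 3 and 23 without heat shock replicate 3.

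Most of the named rises started from almost nothing in control. AT4TE69050 had 1.56, 1.80 and 4.59 CPM in the primed heat shock libraries, 3.49, 2.53 and 3.03 CPM in heat shock, 0.395, 0.311 and 0.369 CPM in priming, against no read in the control libraries. It was at least 525-fold higher (edgeR adjusted p = 7.94e-07) in heat shock, with 3 reads over the group as the floor for control. AT1TE66690 had 1.74, 1.56 and 2.71 CPM in the primed heat shock libraries, 0.814, 1.29 and 1.04 CPM in heat shock, 0.247, 0.0778 and 0.129 CPM in priming, against 0, 0 and 0.00558 CPM in control. Over the 1 read in control, its heat shock to control ratio was 534-fold (exact 95% counting interval 95.3 to 21172, edgeR adjusted p = 5.30e-08), and 87.5 mates per 100 of its reads did not align. In both entries, priming stood between control and the groups shocked at 43 °C, without overlap. Both reach the threshold only through the groups shocked at 43 °C, so their rises there are a description.

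Another set was read at 43 °C and scarcely at 38 °C. Its entries reach the threshold only through the reads of the groups shocked at 43 °C, so their rises there are a description. AT2TE01230 had 1.60, 1.55 and 1.69 CPM in the primed heat shock libraries, 1.46, 1.55 and 1.83 CPM in heat shock, no read in the priming libraries, against 0, 0.0389 and 0 CPM in control, and its log2 fold change in heat shock against control was 6.64 ± 0.52 (SE, edgeR adjusted p = 4.74e-07). AT1TE44005 had 0.709, 0.891 and 0.975 CPM in the primed heat shock libraries, 1.02, 1.38 and 1.38 CPM in heat shock, no read in the priming libraries, against 0.0151, 0.0292 and 0 CPM in control, with a log2 fold change of 6.26 ± 0.49 (SE, edgeR adjusted p = 3.50e-07) in heat shock against control. Of the 6 priming and control libraries, 1 held reads of AT2TE01230 and 2 held reads of AT1TE44005. AT5TE16270 had 2.06, 1.87 and 1.98 CPM in the primed heat shock libraries, 1.63, 2.26 and 2.15 CPM in heat shock, 0.0329, 0 and 0.0369 CPM in priming, against 0.0453, 0.0292 and 0.0446 CPM in control, with a log2 fold change of 5.65 ± 0.33 (SE, edgeR adjusted p = 4.57e-09). AT4TE23990 had 2.28, 2.60 and 1.5 CPM in the primed heat shock libraries, 1.38, 2.04 and 1.66 CPM in heat shock, 0.0165, 0 and 0.0369 CPM in priming, against 0.0680, 0.0487 and 0.0111 CPM in control, with a log2 fold change of 5.33 ± 0.42 (SE, edgeR adjusted p = 1.26e-07). AT4TE67455 differed in showing some reads in priming: it had 1.11, 1.38 and 1.38 CPM in the primed heat shock libraries, 1.26, 1.63 and 1.32 CPM in heat shock, 0.247, 0.0778 and 0.203 CPM in priming, against 0, 0.0341 and 0.0111 CPM in control, and its log2 fold change in heat shock against control was 6.27 ± 0.48 (SE, edgeR adjusted p = 9.22e-08).

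The losses in heat shock were smaller than the rises. AT2TE26110 had 0.388, 0.380 and 0.544 CPM in the primed heat shock libraries, 0.730, 0.475 and 0.523 CPM in heat shock, 1.15, 0.866 and 1.12 CPM in priming, against 1.32, 1.69 and 2.20 CPM in control, a log2 fold change of -1.59 ± 0.25 (SE, edgeR adjusted p = 8.41e-05) in heat shock against control. AT3TE43610 had 1.46, 1.41 and 0.801 CPM in the primed heat shock libraries, 0.915, 0.673 and 0.541 CPM in heat shock, 0.691, 0.662 and 0.811 CPM in priming, against 2.46, 2.52 and 1.28 CPM in control, with a log2 fold change of -1.55 ± 0.29 (SE, edgeR adjusted p = 4.11e-04). AT3TE78350 had 0.510, 1.13 and 0.945 CPM in the primed heat shock libraries, 0.738, 0.633 and 0.506 CPM in heat shock, 0.494, 1.24 and 0.922 CPM in priming, against 1.66, 1.55 and 2.01 CPM in control, with a log2 fold change of -1.47 ± 0.31 (SE, edgeR adjusted p = 9.97e-04). No heat shock library of these 3 entries overlapped control. AT2TE26110 had its lowest mean in primed heat shock, and AT3TE43610 and AT3TE78350 had theirs in heat shock.

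In primed heat shock against control, 215 members (45.3%) were higher and 39 (8.21%) lower, against 32.1% higher and 27.2% lower of all sequences (59.3% in either direction). The median log2 fold change was 0.56 over the members and 0.03 over all sequences. Of the 364 members that reach 200 reads without the primed heat shock libraries, 140 were higher and 35 lower. Here the sum still includes heat shock, so an entry could enter through that other shocked group. With no TMM factor, 174 of the 475 were higher and 76 lower, where the median of all sequences was -0.33. This comparison shares its control libraries with the heat shock comparison.

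Of the 8 largest named rises there, 4 were of entries unread in control and 4 of entries with a few control reads. AT5TE13650 had 0.953, 0.935 and 2.06 CPM in the primed heat shock libraries, 0.462, 0.505 and 0.384 CPM in heat shock, 0.0987, 0.0876 and 0.0922 CPM in priming, against no read in the control libraries, and it was at least 221-fold higher (edgeR adjusted p = 5.59e-08) in primed heat shock. AT5TE66160, unread also in priming, had 0.643, 0.738 and 1.77 CPM in the primed heat shock libraries, 1.06, 0.564 and 0.907 CPM in heat shock, no read in the priming libraries, against no read in the control libraries, and it was at least 176-fold higher (edgeR adjusted p = 4.44e-06). AT4TE69050, whose values stand above, was at least 444-fold higher (edgeR adjusted p = 5.98e-07), and AT5TE95120 was at least 174-fold higher (edgeR adjusted p = 2.33e-07). AT5TE13650 and AT5TE95120 had 170 and 183 reads outside primed heat shock and are members only through it, so these values describe them. Primed heat shock replicate 3 was the highest library in all 4 of these entries, as it was in AT1TE66690. The ratio of primed heat shock to control was 1012-fold (exact 95% counting interval 181 to 40042, edgeR adjusted p = 5.96e-09) for AT1TE66690 and 758-fold (exact 95% counting interval 259 to 3681, edgeR adjusted p = 2.42e-11) for AT1TE64755.

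Among the losses in primed heat shock, AT2TE26110 had a log2 fold change of -1.99 ± 0.26 (SE, edgeR adjusted p = 9.37e-06) against control. AT2TE64130 had 0.886, 0.826 and 1.35 CPM in the primed heat shock libraries, 1.54, 1.61 and 1.11 CPM in heat shock, 1.81, 2.66 and 2.43 CPM in priming, against 2.27, 2.38 and 3.21 CPM in control, with a log2 fold change of -1.37 ± 0.23 (SE, edgeR adjusted p = 1.16e-04). AT5TE38720 had 0.465, 0.570 and 0.647 CPM in the primed heat shock libraries, 0.822, 0.871 and 0.890 CPM in heat shock, 0.214, 0.117 and 0.332 CPM in priming, against 1.10, 1.06 and 1.13 CPM in control, with a log2 fold change of -0.96 ± 0.26 (SE, edgeR adjusted p = 0.00446). AT5TE38720 was lowest in priming and AT2TE64130 in primed heat shock. The log2 fold change was -1.0 ± 0.30 (SE, edgeR adjusted p = 0.00995) for AT3TE78350 and -0.99 ± 0.35 (SE, edgeR adjusted p = 0.0233) for AT2TE43125. These did not pass without primed heat shock replicate 1, at adjusted p = 0.0508 and 0.0860, and the loss of AT2TE43125 did not pass without primed heat shock replicate 2 (0.0712).

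Primed heat shock against heat shock asks whether a mild heat on the day before changes the response to 43 °C, in seedlings of the same age. Few members differed: 32 (6.74%) were higher and 11 (2.32%) lower in primed heat shock, where 12.1% of all sequences were higher and 10.7% lower (22.8% in either direction). Of the 364 members that reach 200 reads without the primed heat shock libraries, 20 were higher and 11 lower, so 12 of the 32 are members only through that group. The median log2 fold change was 0.03 over members and -0.00 over all sequences. Both counts rest on few libraries. Without heat shock replicate 3, or without primed heat shock replicate 1, they were 21 and 5, without heat shock replicate 2 the lower count was 5, and without primed heat shock replicate 2 it was 4. All 11 lower members were 500 bases or longer, and 19 of the 32 higher ones were shorter than that. Of the 475 members, 246 were under 500 bases, and 7.72% of these were higher, against 5.68% of the longer ones. Of the longer ones, 4.80% were lower. All of these shares lay below those over all sequences.

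A pair of entries with consecutive numbers on chromosome 1 carried the largest differences. AT1TE64750, 743 bases, had 3.57, 3.94 and 3.15 CPM in the primed heat shock libraries, 0.0587, 0.0594 and 0.0262 CPM in heat shock, 0.494, 0.642 and 0.922 CPM in priming, against 0.00756, 0 and 0 CPM in control. Its primed heat shock libraries lay above all others and its heat shock libraries below priming. It had 163 reads outside primed heat shock, against 1168 within it, and so is a member only through that group; its differences are a description. The log2 fold change in primed heat shock against heat shock was 6.18 ± 0.35 (SE, edgeR adjusted p = 6.41e-09) for AT1TE64750 and 5.72 ± 0.27 (SE, edgeR adjusted p = 8.26e-10) for AT1TE64755. In primed heat shock against control, the ratio of AT1TE64750 was 1862-fold (exact 95% counting interval 334 to 73599, edgeR adjusted p = 2.15e-10), over 1 control read.

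The 3 consecutive entries of chromosome 5 were also higher in primed heat shock than in heat shock. Their log2 fold changes were 2.40 ± 0.40 (SE, edgeR adjusted p = 7.62e-04) for AT5TE95120, 1.98 ± 0.28 (SE, edgeR adjusted p = 1.52e-04) for AT5TE95130 and 1.95 ± 0.24 (SE, edgeR adjusted p = 1.25e-04) for AT5TE95125. All of their primed heat shock libraries lay above their heat shock libraries, and AT5TE95125 and AT5TE95130 stayed far below priming. AT5TE13650 had a log2 fold change of 1.55 ± 0.33 (SE, edgeR adjusted p = 0.00443). As given above, AT5TE95120 and AT5TE13650 reach 200 reads only with the primed heat shock libraries.

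AT5TE55640 and AT4TE00955 were read above control in heat shock and higher still in primed heat shock. AT5TE55640 had 5.75, 3.62 and 2.02 CPM in the primed heat shock libraries, 1.34, 1.44 and 1.19 CPM in heat shock, 0.0987, 0.0778 and 0.0737 CPM in priming, against 0.741, 0.491 and 0.217 CPM in control, a log2 fold change of 1.52 ± 0.38 (SE, edgeR adjusted p = 0.0111) in primed heat shock against heat shock. Its 3 primed heat shock libraries spread widely, and the difference did not pass without heat shock replicate 3 (adjusted p = 0.0511) or primed heat shock replicate 1 (0.0555). AT4TE00955 had 1.26, 0.921 and 0.975 CPM in the primed heat shock libraries, 0.327, 0.366 and 0.410 CPM in heat shock, 0.263, 0.126 and 0.0737 CPM in priming, against 0.106, 0.0778 and 0.0613 CPM in control, with a log2 fold change of 1.51 ± 0.32 (SE, edgeR adjusted p = 0.00314). With 197 reads outside primed heat shock, it too is a member only through that group.

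Of the lower members, AT2TE26610 had the smallest adjusted p. It had 3.30, 2.48 and 2.93 CPM in the primed heat shock libraries, 10.7, 9.88 and 9.72 CPM in heat shock, 3.72, 4.67 and 3.89 CPM in priming, against 3.91, 3.17 and 4.21 CPM in control. Heat shock stood far above the other groups, and primed heat shock overlapped control. The log2 fold change in primed heat shock against heat shock was -1.80 ± 0.14 (SE, edgeR adjusted p = 2.86e-07). AT1TE32095, unread in priming, had 0.355, 0.161 and 0.400 CPM in the primed heat shock libraries, 0.697, 1.13 and 1.40 CPM in heat shock, no read in the priming libraries, against 0.0982, 0.0487 and 0.0613 CPM in control, with a log2 fold change of -1.83 ± 0.40 (SE, edgeR adjusted p = 0.00452). It had 127 reads outside heat shock and is a member only through heat shock, where it was highest.

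AT5TE60280 and AT2TE04800 were highest in heat shock as well; primed heat shock overlapped control in AT5TE60280 and lay between control and heat shock in AT2TE04800. AT5TE60280 had 0.587, 0.234 and 0.493 CPM in the primed heat shock libraries, 1.14, 0.871 and 1.07 CPM in heat shock, 0.428, 0.292 and 0.221 CPM in priming, against 0.597, 0.384 and 0.435 CPM in control, with a log2 fold change of -1.26 ± 0.33 (SE, edgeR adjusted p = 0.0114) in primed heat shock against heat shock and adjusted p = 0.0539 without primed heat shock replicate 2. AT2TE04800 had 0.543, 0.475 and 0.390 CPM in the primed heat shock libraries, 1.08, 0.930 and 0.995 CPM in heat shock, 0.0987, 0.224 and 0.147 CPM in priming, against 0.204, 0.224 and 0.151 CPM in control, with a log2 fold change of -1.09 ± 0.28 (SE, edgeR adjusted p = 0.00917). AT4TE21085 had 2.70, 2.16 and 3.14 CPM in the primed heat shock libraries, 3.4, 4.72 and 3.64 CPM in heat shock, 3.26, 3.43 and 4.33 CPM in priming, against 2.45, 2.81 and 3.15 CPM in control. Its difference, -0.56 ± 0.18 (SE, edgeR adjusted p = 0.0315), did not pass without any 1 of 4 libraries (heat shock replicates 2 and 3, primed heat shock replicates 1 and 2), at adjusted p = 0.0542 to 0.168, nor with no TMM factor, at -0.44 (0.153).

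No library is shared by the comparison of priming with control and that of primed heat shock with heat shock, so their calls can be set side by side. Of the 32 members higher in primed heat shock than in heat shock, 22 (68.8%) were also higher in priming than in control, which is 25.3% of the 87 higher in priming. Over all sequences tested, 1697 (53.7%) of the 3161 higher in primed heat shock were also higher in priming, 24.3% of the 6990. Of the 20 higher members that reach 200 reads without primed heat shock, 18 were higher in priming too. That sum still includes the priming libraries, so a high level there could bring a member in, and this count is a description. Another 4 of the 32 were lower in priming. Of the 11 lower in primed heat shock, 6 (54.5%) were lower in priming and 0 higher, the 6 being 4.14% of the 145 lower in priming, where over all sequences 1198 (42.7%) of 2806 were lower in both. Among the 22 are AT1TE64750, AT1TE64755, AT1TE66690, AT1TE91400, AT5TE17325, AT5TE76900, AT5TE13650, the 3 consecutive entries of chromosome 5, and 5 entries of the chromosome 2 run described next. These overlaps are counts, with no test.

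Heat shock against priming sets the 2 temperatures side by side, at different ages. In heat shock 238 members (50.1%) were higher and 54 (11.4%) lower, against 33.8% and 29.0% of all sequences (62.8% in either direction), and the median log2 fold change was 0.86 over members and 0.06 over all sequences. Among the 361 members that reach 200 reads without the heat shock libraries, 153 were higher and 54 lower, with the primed heat shock libraries still in their sum. AT2TE01230 was at least 117-fold higher (edgeR adjusted p = 6.15e-07), AT1TE44005 at least 90.9-fold higher (edgeR adjusted p = 3.84e-07) and AT1TE32095 at least 77.4-fold higher (edgeR adjusted p = 1.27e-06) in heat shock, none of them being read in priming. The heat shock to priming ratio of AT4TE23990 was 122-fold (exact 95% counting interval 41.4 to 592, edgeR adjusted p = 1.35e-07).

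Entries with reads in both groups differed too. AT3TE46185 had 0.798, 0.789 and 0.842 CPM in the primed heat shock libraries, 0.713, 1.33 and 1.01 CPM in heat shock, 0.0165, 0.0195 and 0.0369 CPM in priming, against 0.529, 0.584 and 0.546 CPM in control, with a log2 fold change of 5.40 ± 0.41 (SE, edgeR adjusted p = 3.66e-08) in heat shock against priming. AT3TE42270 had 1.62, 1.59 and 1.81 CPM in the primed heat shock libraries, 1.62, 1.71 and 1.93 CPM in heat shock, 0.0658, 0.0681 and 0.0369 CPM in priming, against 0.718, 0.798 and 0.513 CPM in control, with a log2 fold change of 4.86 ± 0.30 (SE, edgeR adjusted p = 3.44e-09). In both, priming lay below control and heat shock above it. AT4TE21850 and AT5TE16270 had log2 fold changes of 5.90 ± 0.37 (SE, edgeR adjusted p = 4.18e-09) and 6.67 ± 0.43 (SE, edgeR adjusted p = 5.56e-09).

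In the other direction, the log2 fold change in heat shock against priming was -5.89 ± 0.27 (SE, edgeR adjusted p = 1.06e-10) for AT1TE64755, -5.57 ± 0.26 (SE, edgeR adjusted p = 7.12e-09) for AT5TE95125 and -5.17 ± 0.28 (SE, edgeR adjusted p = 3.24e-09) for AT5TE95130. AT5TE17325 and AT4TE09335 had -4.81 ± 0.33 (SE, edgeR adjusted p = 1.07e-08) and -4.12 ± 0.26 (SE, edgeR adjusted p = 5.70e-09). All 5 were higher in priming than in control. AT4TE09335, with 176 reads outside priming, is a member only through that group, so its difference is a description.

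Calls are split here by length and by chromosome, and no difference between the classes was tested. In heat shock against control, 123 (53.7%) of the 229 members of 500 bases or more were higher and 19 (8.30%) lower. Of the 246 shorter ones, 95 (38.6%) were higher and 23 (9.35%) lower, against 27.9% and 24.5% of all sequences. In priming against control, 34 (14.8%) of the longer members were higher and 87 (38.0%) lower. The shorter ones split into 53 (21.5%) and 58 (23.6%), against 26.7% and 27.1% of all sequences. Chromosome 2 alone had more higher than lower members in priming, 31 (36.5%) against 19 (22.4%) of 85. On the other chromosomes the lower ones were more, at 15 higher and 41 lower of 117 on chromosome 1, 10 and 29 of 83 on chromosome 3, 12 and 20 of 71 on chromosome 4, and 19 and 36 of 119 on chromosome 5.

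The excess on chromosome 2 lay in a run of entries with close numbers. The 23 members numbered AT2TE14150 to AT2TE15160, of 36 short entries in that range, were picked out after their values were seen, so their counts are a description. In priming against control 22 of the 23 were higher and 0 lower, with a median log2 fold change of 1.37 (0.76 to 2.82). In heat shock against control 20 were higher and 0 lower, with a median of 1.08 (0.49 to 2.45). In primed heat shock against heat shock 5 were higher and 0 lower, with a median of 0.36, and in heat shock against priming 0 were higher and 7 lower, with a median of -0.27. Without these 23, 65 members were higher and 145 lower in priming against control.

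The run holds 3 of the 10 most abundant members. AT2TE14285 had 12.3, 10.1 and 14.5 CPM in the primed heat shock libraries, 9.77, 11.1 and 11.4 CPM in heat shock, 22.5, 15.7 and 18.1 CPM in priming, against 4.92, 4.12 and 4.44 CPM in control, a log2 fold change of 2.06 ± 0.15 (SE, edgeR adjusted p = 2.46e-08) in priming against control and 1.26 ± 0.15 (SE, edgeR adjusted p = 4.95e-06) in heat shock against control. AT2TE14330 had 13.2, 11.9 and 14.1 CPM in the primed heat shock libraries, 8.94, 9.11 and 9.40 CPM in heat shock, 13.3, 9.50 and 11.6 CPM in priming, against 3.06, 3.09 and 3.84 CPM in control, with a log2 fold change of 1.78 ± 0.13 (SE, edgeR adjusted p = 2.68e-08) in priming against control. AT2TE15150 had 14.3, 12 and 15.3 CPM in the primed heat shock libraries, 10.2, 11 and 11.2 CPM in heat shock, 12.4, 9.82 and 10.3 CPM in priming, against 6.24, 6.22 and 6.29 CPM in control, with a log2 fold change of 0.79 ± 0.11 (SE, edgeR adjusted p = 2.25e-05). With no TMM factor AT2TE15150 did not pass in heat shock against control, at 0.30 (adjusted p = 0.0635). In all 3 entries, every heated library lay above every control library. In primed heat shock against heat shock the log2 fold change was 0.51 ± 0.12 (SE, edgeR adjusted p = 0.00715) for AT2TE14330 and, for AT2TE15150, 0.36 ± 0.11 (SE, edgeR adjusted p = 0.0251), the second of which did not pass without any 1 of 5 of the 6 libraries compared, at adjusted p = 0.0574 to 0.107.

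**Figure D4:**
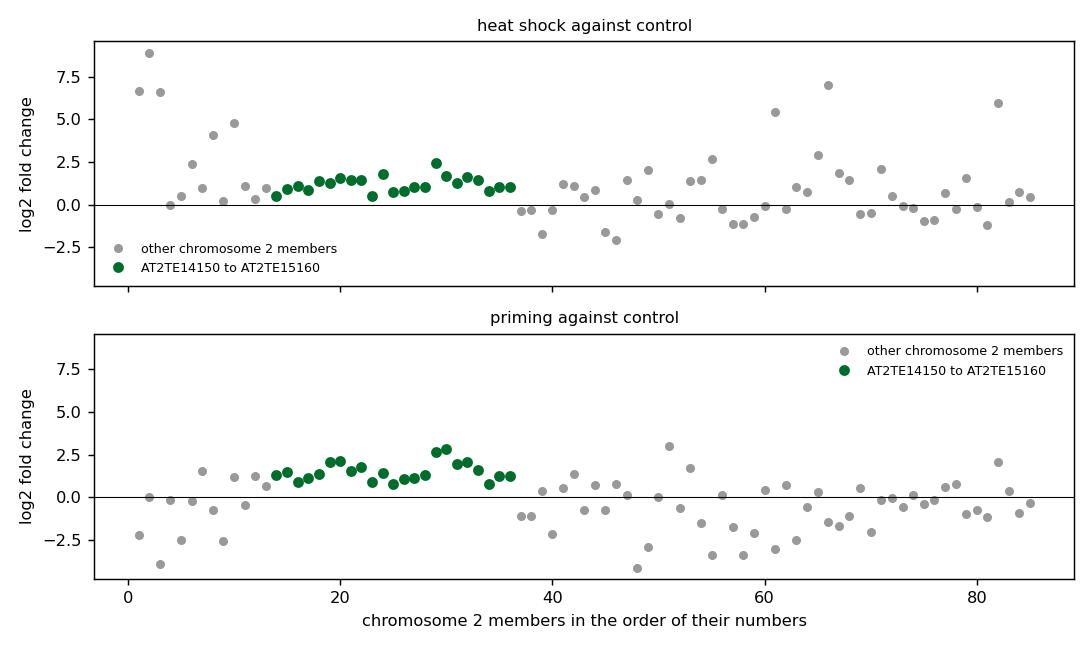
Log2 fold change of the 85 members of chromosome 2 in the order of their numbers, in heat shock against control (top) and priming against control (bottom). The 23 members of the run from AT2TE14150 to AT2TE15160, in green, all lie above 0 in both, between 0.49 and 2.45 in heat shock and between 0.76 and 2.82 in priming, while the grey points lie on both sides of 0.

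Mitochondrial loci were also higher in the heated groups. Chromosome 2 of Arabidopsis carries a large insertion of mitochondrial DNA, and reads that match both places are placed by the aligner. The 23 members together had 79.6 ± 10.1 CPM in primed heat shock, 62.1 ± 2.77 in heat shock, 80.6 ± 10.9 in priming and 27.7 ± 1.25 in control (SD, n = 3 each). Mitochondrial loci together had 17752 ± 2599, 18553 ± 1625, 24337 ± 4093 and 11901 ± 652 CPM in the same order. Of 123 mitochondrial loci tested, 120 were higher and 0 lower in priming against control (median 1.22), and 115 and 0 in heat shock against control (median 0.80). In primed heat shock against control 111 were higher and 1 lower (median 1.16), where the run had 22 higher and 0 lower (median 1.45). In heat shock against priming 0 were higher and 75 lower (median -0.44). In primed heat shock against heat shock 23 were higher and 2 lower (median 0.22), while the summed mean was lower in primed heat shock, by less than either SD. The means of the run in primed heat shock and priming differed by less than their SDs, and those of the mitochondrial sum by more. Whether the reads of these entries come from mitochondrial RNA was not tested. With no TMM factor, 11 of the 23 were higher and 0 lower in priming against control, at a median of 0.48 where all sequences stood at -0.88, and the median in heat shock against priming turned to 0.11 where all sequences stood at 0.43.

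Entries with consecutive numbers tended to change by like amounts. Numbers of transposon entries run along each chromosome, mostly in steps of 5, and 34 pairs of members differ by 1 step. Their log2 fold changes in priming against control differed by a median of 0.63 within a pair, against 1.45 for the 436 other pairs of members next to each other in the list, and 32 of 34 pairs had the same sign against 225 of 436. In heat shock against control the median difference was 0.38 against 1.23, with the same sign in 30 of 34 and 275 of 436. In primed heat shock against heat shock, where most changes were small, it was 0.33 against 0.38, with the same sign in 27 of 34 and 238 of 436. Most members stood alone: 410 had no member at the next number, 28 runs held 2 and 3 runs held 3. Members of a pair may share a transcript and are then not separate measurements.

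**Figure D5:**
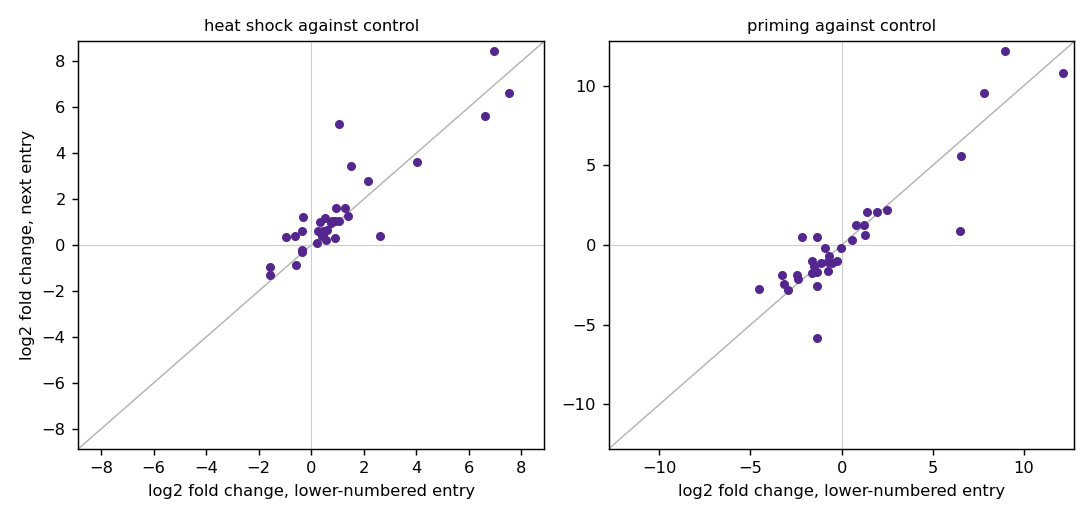
Log2 fold change of the lower-numbered entry (x axis) and of the next entry (y axis) in the 34 pairs of members with consecutive numbers, in heat shock against control (left) and priming against control (right); the grey diagonal marks equal change. Of the 34 pairs, 30 lie on the same side of 0 in both entries at left and 32 at right.

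Longer transposon entries are set beside the members here. Of the 126 entries of 3000 bases or more with at least 200 reads, 63 (50.0%) were higher and 9 (7.14%) lower in heat shock against control (median log2 fold change 0.59). In priming against control 25 (19.8%) were higher and 52 (41.3%) lower (median -0.52). In primed heat shock against heat shock 16 (12.7%) were higher and 7 (5.56%) lower. Over all sequences the shares were 27.9% and 24.5%, 26.7% and 27.1%, and 12.1% and 10.7% in the same order. No difference between short and long entries was tested.

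Genes that act in or on transposon silencing were read beside the members, on a list of 20 genes. The list includes ROS1, a DNA demethylase that acts against silencing. In priming against control 2 were higher and 7 (35%) lower, where 27.1% of all sequences were lower. For heat shock against control, 0 were higher and 8 (40%) lower, against 24.5% of all sequences, and the counts were the same in primed heat shock against control, against 27.2%. ROS1 was among the lower genes in both, at log2 fold changes of -0.53 ± 0.08 (SE, edgeR adjusted p = 5.22e-05) in heat shock and -0.59 ± 0.08 (SE, edgeR adjusted p = 1.39e-05) in primed heat shock. The list was not tested as a set. NRPE1, a subunit of an RNA polymerase of RNA-directed methylation, had an edgeR adjusted p of 0.05004 in priming against control. It passed as lower there with the replicate block (0.0377), with median-of-ratios factors (0.0468) and by DESeq2 (0.048). MOM1, a silencing factor, passed as lower in primed heat shock against control with the replicate block (adjusted p = 0.0347, 0.0971 without the block). MET1, which maintains methylation at CG sites, had 2.06 ± 0.570 CPM in primed heat shock, 2.11 ± 0.238 in heat shock, 3.10 ± 0.458 in priming and 5.22 ± 0.814 in control (SD, n = 3 each), and its log2 fold change in heat shock against control was -1.31 ± 0.19 (SE, edgeR adjusted p = 4.86e-05). DDM1, a chromatin remodeller needed for methylation in heterochromatin, was lower in heat shock, at a log2 fold change of -0.91 ± 0.19 against control (SE, edgeR adjusted p = 0.000949). CMT3, which methylates CHG sites, had 3.63 ± 0.148 CPM in primed heat shock, 1.70 ± 0.167 in heat shock, 3.25 ± 0.457 in priming and 4.35 ± 0.142 in control.

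CMT3 and SUVH6, a histone H3 lysine 9 methyltransferase, were the 2 genes of the list that passed the test in primed heat shock against heat shock, at log2 fold changes of 1.10 ± 0.13 (SE, edgeR adjusted p = 2.91e-05) and 0.50 ± 0.10 (edgeR adjusted p = 0.00224). CMT2, a methyltransferase of non-CG sites, had a log2 fold change of -0.35 there (edgeR adjusted p = 0.0601) and passed as lower with the replicate block (0.0204), with median-of-ratios factors (0.0476) and by DESeq2 (0.0380). AGO4, which binds the small RNAs that guide methylation, and HDA6, a histone deacetylase, were the 2 that rose in priming, at 0.29 ± 0.07 (edgeR adjusted p = 0.00353) and 0.45 ± 0.09 (edgeR adjusted p = 0.000880). With no TMM factor, 0 of the 20 were higher and 20 lower in priming against control, and 0 and 16 in heat shock against control. The part of these genes in the levels of the members was not tested.

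Markers of other material in a seedling sample differed between groups too. The 10 seed maturation genes summed to 13.5 to 22.0 CPM in primed heat shock, 10.3 to 14.0 in heat shock, 22.2 to 35.7 in priming and 17.7 to 37.2 in control, and of the 9 tested 5 were lower in heat shock than in control. The 8 root genes summed to 747.3 to 771.6 CPM in primed heat shock, 562.2 to 624 in heat shock, 362.4 to 390.6 in priming and 517.9 to 682.6 in control, with 1 higher and 5 lower in primed heat shock against control, 3 lower in heat shock against control, and 1 higher and 4 lower in priming against control. PYK10, a root beta-glucosidase, made up most of that sum, at 661.3 ± 11.9 CPM in primed heat shock, 457.1 ± 40.2 in heat shock, 258 ± 5.57 in priming and 453.4 ± 70.6 in control (SD, n = 3 each). Over all sequences tested, 27.1% were lower in priming against control, 24.5% in heat shock against control and 27.2% in primed heat shock against control. In either direction the shares were 53.8%, 52.4% and 59.3%. The marker lists were not tested as sets, and their part in the members' levels was not tested.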

How the data were processed

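For each library the authors deposited 1 table of raw counts, aligned reads for every reference sequence, with a further column of reads whose mate did not align. Per the submitters' processing notes, Bowtie2, SAMtools, DESeq2 and genome build TAIR10 were used; their versions, roles, settings for strand and for reads with several matches are not given in the sources used here, so entries that overlap or repeat another sequence are uncertain. The 17 ribosomal RNA loci, 0.421% to 0.934% of aligned reads, and unplaced reads were left out.

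Tests used edgeR 4.0.16 in R 4.3.3 on the whole table: TMM factors (0.648 to 1.44), a low-count filter (filterByExpr, groups given, minimum count 10), glmQLFit with robust set and 1 mean per group over 12 libraries, and Benjamini-Hochberg adjustment over 26159 sequences at 0.05. The biological coefficient of variation was 0.143. The scripts were tested on simulated data. Standard errors are the absolute log2 fold change over the square root of F. Where a group had no read, the bound uses 3 counts over the group and takes the count of the other group as fixed. With 1 to 3 counts, a ratio has its exact 95% interval. Equal depth is that of the library with the fewest nuclear counts. Tables used Python 3.11.15, pandas 2.3.3, numpy 2.4.6 and scipy 1.17.1, figures matplotlib 3.10.9.

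Members, lists and tests were chosen with earlier results of these data known. Named are the 10 members with the largest mean CPM, and in each comparison the 8 largest increases and 5 largest decreases past the threshold whose libraries do not overlap and whose higher group reaches 1 CPM, beside the entries next to the sum of 200. Replicate numbers mark shared harvest dates, per the labels, and so pair the samples; libraries with 1 number deviated from their group means with a mean correlation of -0.02 to 0.06. Alternatives were the replicate block, DESeq2 1.42.0, other scalings, no filter on low counts and each library left out.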

Additional observations from a re-analysis of the deposited data

How the results depend on the processing

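Of 92 named results, 73 kept direction and side of the threshold under every setting run. With the replicate block, none of the 92 named results changed its call and no count moved by over 1.5 times: members were 86 higher and 139 lower in priming against control, 216 and 39 in heat shock against control, 212 and 40 in primed heat shock against control, 29 and 8 in primed heat shock against heat shock, and 241 and 55 in heat shock against priming. DESeq2, median-of-ratios factors and scaling to nuclear sequences changed none of the 92 calls either. The setting that moved most was library size with no scaling factor: 40 higher and 271 lower in priming against control, 93 lower in heat shock against control, 76 lower in primed heat shock against control and 33 lower in heat shock against priming. In priming against control it reversed AT5TE72200 (-0.58), AT3TE55095 (-0.16), AT4TE13950 (-0.14), AT4TE13930 (-0.034), AT2TE15150 (-0.085) and AT2TE44930 (-0.16). It also ended 4 calls in heat shock against control, of AT4TE13950 (0.31), AT4TE13930 (0.34), AT2TE15150 (0.30) and AT2TE45280 (0.24), and that of AT4TE21085 in primed heat shock against heat shock (-0.44), at adjusted p = 0.0635 to 0.245. AT2TE44930 then passed as lower in heat shock against control (-0.75). With no filter on low counts, AT3TE55095 and AT2TE44930 no longer passed in priming against control. Counting only members that reach 200 reads without the first-named group, a setting chosen after seeing the data, left 140 higher in primed heat shock against control, 20 in primed heat shock against heat shock and 153 in heat shock against priming. That setting counts fewer members by construction, and a member could still reach 200 reads through another heated group. Ratios of the share of reads on short entries were 0.762 in priming against control, 1.13 in heat shock against control, 1.27 in primed heat shock against control, 1.12 in primed heat shock against heat shock and 1.48 in heat shock against priming. Taken of nuclear counts they were 0.837, 1.52, 1.53, 1.00 and 1.82 in that order. Leaving out 1 library at a time gave 78 to 88 higher and 122 to 141 lower in priming against control, 188 to 222 and 23 to 45 in heat shock against control, 202 to 220 and 27 to 43 in primed heat shock against control, 21 to 36 and 4 to 15 in primed heat shock against heat shock, and 226 to 240 and 44 to 56 in heat shock against priming. The cause of these shifts was not tested. Depth limits what can be said of entries with few reads. Bounds and intervals cover counting error only and take mates as separate reads. An entry unread in a group may be transcribed below what was detectable.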
